A study of Homo sapiens with 9 samples.

Results

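Cytosolic chaperones are proteins that hold other proteins in a folding-competent state, refold those that have lost their shape and pass the rest on for degradation. Heat shock factor 1, encoded by HSF1, is the transcription factor that raises many of their genes under proteotoxic stress by binding heat shock elements, which are runs of short inverted GAA repeats in promoters. Many cancer cells are known to depend on high chaperone levels. HSP70 proteins (HSPA1A, HSPA1B, HSPA8) bind exposed hydrophobic stretches, J-domain proteins such as DNAJB1 load clients onto them, HSPH1 and BAG3 release nucleotide from them, HSP90AA1 takes over late folding steps, and HSPB1 is a small heat shock protein that binds unfolding clients without ATP.

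The 10 genes described here were the rows of the deposited table whose symbol was HSF1, HSPA1A, HSPA1B, HSPA8, HSP90AA1, HSPH1, DNAJB1, HSPB1, BAG3 or HSPD1, and each symbol had a row among the 60605 genes of the table. They form a list of known heat shock genes, and the rule itself uses their symbols and no threshold on a measured value. HSF1 is a transcription factor and HSPD1 is the chaperonin of the mitochondrial matrix, so that these members are not cytosolic chaperones, and the other 8 are cytosolic chaperones or cochaperones. RNA was measured by sequencing of poly(A)+ RNA in TE13, a human esophageal squamous cell carcinoma line, in 9 libraries. The groups were TE13 cells with control siRNA, with PARylator siRNA.1 and with PARylator siRNA.2, each with 3 libraries that the submitters' design calls biological replicates. PARylator is the long noncoding RNA LINC00885, and the comparison asks what its knockdown changes in these cells. All groups are 1 cell line exposed to an siRNA, no other agent is labelled, and the sources used here give no time between transfection and harvest for these libraries.

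Total counts on genes lay between 15337917 and 22559998 per library, and each of the 10 genes had counts that allowed a test in every comparison. The list of squamous epithelial markers also holds the general epithelial genes CDH1 and EPCAM. Of this list, 8 of 8 were at 1 FPKM (fragments per kilobase of exon, scaled to the library total) or more in each group. Of the fibroblast markers, 1 of 6 reached that level in each group. It was COL1A1, at a mean of 1.99 FPKM with control siRNA, 1.39 under siRNA.1 and 1.40 under siRNA.2. Of the endothelial markers, 0 of 5 reached it. The summed markers of the squamous list were 650 to 662 FPKM with control siRNA, 573 to 600 under siRNA.1 and 563 to 582 under siRNA.2. Single squamous markers went both ways, with KRT5 at a mean of 142, 40.0 and 55.8 FPKM in the 3 groups and KRT6A at 78.7, 102 and 118. The summed leukocyte markers were 0.540 to 1.24, 3.93 to 4.58 and 3.87 to 4.60 FPKM. Most of that sum was LYZ, at a mean of 0.317, 2.79 and 3.08 FPKM, and the means of PTPRC, CD14 and CSF1R were also higher with both PARylator siRNAs, whereas MS4A1 was at 0 in all libraries and CD2 at 0 with both PARylator siRNAs. The part of these shifts in the values below was not tested. Mitochondrially encoded genes took 7.46% to 7.66% of the counts with control siRNA, 4.99% to 5.06% under siRNA.1 and 5.54% to 5.56% under siRNA.2.

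LINC00885 itself was barely detected. It had 6, 7 and 12 counts with control siRNA, 4, 5 and 2 with siRNA.1, and 2, 0 and 4 with siRNA.2. The log2 fold change of LINC00885 was -1.21 (SE 0.95, edgeR adjusted p = 0.376) with siRNA.1 and -2.33 (SE 1.0, adjusted p = 0.0659) with siRNA.2, so that a fall in the targeted RNA was not detectable by this test at this depth. The groups are therefore named by the siRNA on their label. By qPCR, a separate measure, the paper reports that its PARylator siRNAs lowered this RNA in TE13 and KYSE450 cells. In bulk RNA, fewer cells that express a gene and less RNA per cell cannot be told apart.

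With siRNA.1, 8 of the 10 genes fell and 2 rose (edgeR adjusted p under 0.05 over all 21395 genes tested). Among all tested genes, 15.2% fell and 15.0% rose in the same comparison. With siRNA.2, 6 of the 10 fell, 2 rose, and HSPA8 and HSP90AA1 were not called, against 15.1% of all tested genes lower and 15.8% higher. All 10 genes lie above 1 FPKM. Of the 12532 genes fitted at 1 FPKM or more, 2953 fell and 2866 rose with siRNA.1, and 2986 fell and 2927 rose with siRNA.2. The shares over all tested genes, here and for the lists below, are therefore lower than those of genes at such levels. The 6 genes lower with both siRNAs were HSPA1A, HSPA1B, HSPH1, DNAJB1, HSPB1 and BAG3, the 2 higher with both were HSF1 and HSPD1, and 0 moved in opposite directions. Both comparisons use the same 3 control libraries, so these counts are not independent of each other. The share of all tested genes called in the same direction with both siRNAs was not computed, here or for the lists below. At the median, the 10 genes had a log2 fold change of -0.19 under siRNA.1 and -0.22 under siRNA.2, where the median of all tested genes was -0.00060 and 0.0040. Among the falls with siRNA.1, HSPA8 fell by 8.54% and HSPA1B, the deepest, fell by 22.7%.

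**Figure D1:**
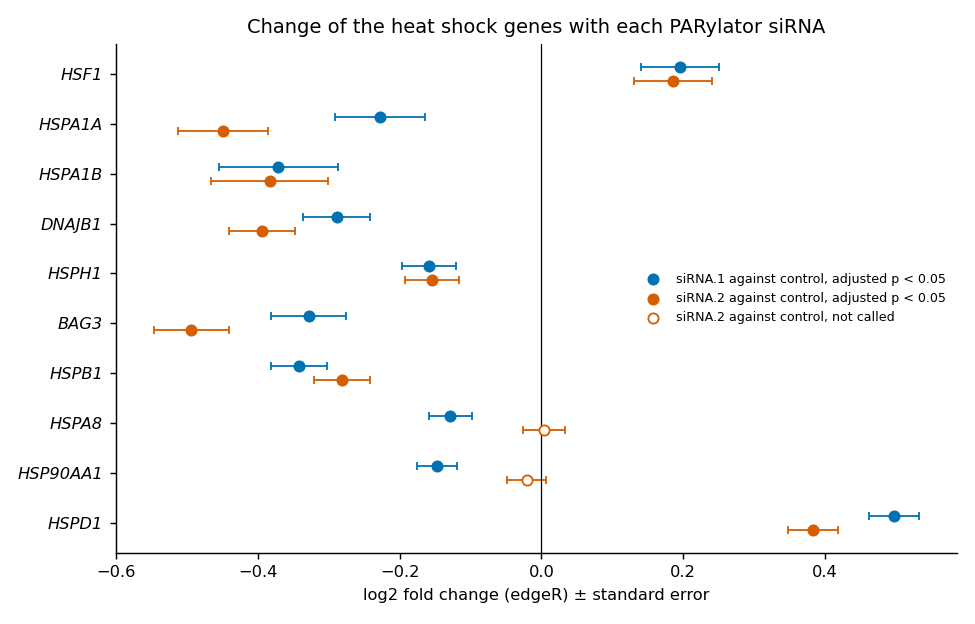
Log2 fold change from edgeR (horizontal axis) of each of the 10 genes with siRNA.1 (blue) and siRNA.2 (orange) against control siRNA, with bars of 1 standard error and open circles for genes that were not called. HSF1 and HSPD1 lie right of 0 with both siRNAs, 6 genes lie left of 0 with both, and HSPA8 and HSP90AA1 lie near 0 with siRNA.2 only.

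Per length, HSP90AA1, HSPA8 and HSPB1 were the most abundant of the 10. HSP90AA1 stood at 705 ± 19.2 FPKM with control siRNA (SD, n = 3), HSPA8 at 470 ± 12.2 and HSPB1 at 329 ± 12.03, and 99.9% of the genes with a count lay below each of the first 2. HSPD1 followed at 89.7 ± 2.88 FPKM, HSPH1 at 70.8 ± 1.96 and BAG3 at 52.5 ± 0.860. The stress-inducible HSP70 gene HSPA1A was at 32.8 ± 1.77, DNAJB1 at 26.8 ± 1.84, HSF1 at 18.3 ± 0.0917 and HSPA1B at 15.9 ± 1.29 FPKM. With control siRNA no neighbours in this order overlapped. The order was the same with siRNA.1, where HSF1 (19.42 to 23.51 FPKM) and DNAJB1 (22.21 to 22.54) overlapped, and with siRNA.2 HSF1 (19.92 to 21.52) passed DNAJB1 (20.10 to 21.14), again with overlapping ranges. The deposited FPKM divides by the merged exons of all annotated transcripts, which for DNAJB1 is 8188 bases against 2242 in its canonical transcript, and for HSPD1 7629 against 2245, so levels of such genes are set low against those of HSPA1A, whose 2404 bases are close to the 2400 of its canonical transcript.

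**Figure D2:**
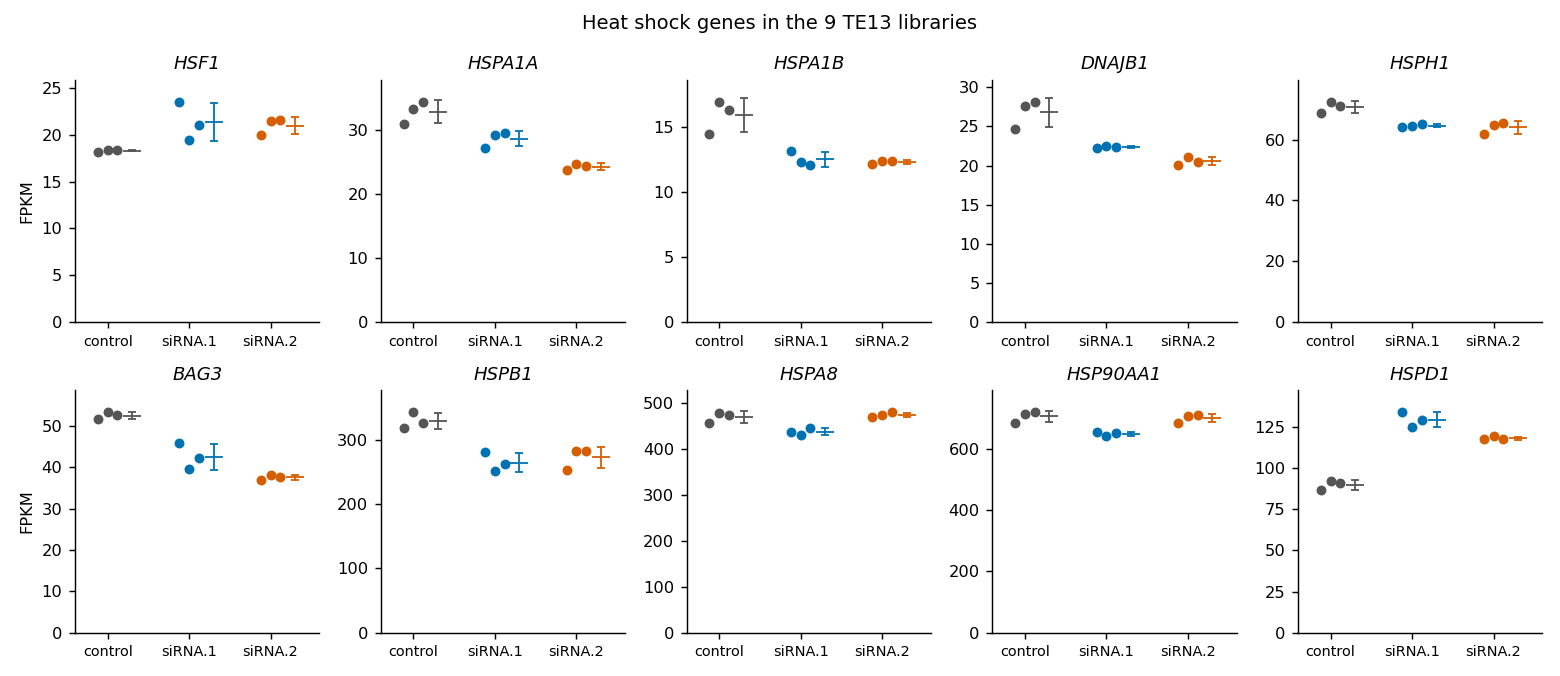
FPKM (vertical axis, from 0) of the 10 genes in the 9 libraries, with 1 point per library and a bar for the mean ± SD of each group of 3. The siRNA.1 points lie apart from the control points in all 10 panels, and the siRNA.2 points overlap the control points for HSPA8 and HSP90AA1. The share of all tested genes with points apart in this way was not computed.

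HSF1, the transcription factor, was at 18.20, 18.32 and 18.38 FPKM in the control libraries, at 23.51, 19.42 and 21.07 with siRNA.1, and at 19.92, 21.47 and 21.52 with siRNA.2. Every PARylator siRNA library was above every control library, and replicate 1 of siRNA.1 was the highest of all. HSF1 rose by 0.20 on the log2 scale with siRNA.1 (SE 0.055, edgeR adjusted p = 0.00214) and by 0.19 with siRNA.2 (SE 0.055, adjusted p = 0.00336). Without replicate 1 of siRNA.1 the first value was 0.12 with an adjusted p of 0.142, so that this call rests on that library. With limma on log2(FPKM + pseudocount) the siRNA.2 value stayed near its size, and the adjusted p rose to between 0.0559 and 0.0593. The siRNAs did not differ detectably for HSF1, with a log2 difference of -0.0098 and a 95% interval of -0.12 to 0.097. Over the 9 libraries, the genes whose log2 CPM (counts scaled to the library total) ran most like that of HSF1 among 11833 genes were CCDC12 (Pearson r = 0.973), EIF3M (0.969) and RPF1 (0.968), in libraries that fall into 3 conditions.

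The other heat shock factors and HSF1 regulators gave no call. Of 6 listed genes, 5 passed the filter on low values (HSF5 did not), and 0 of the 5 rose or fell with either siRNA. For comparison, 15.0% of all tested genes rose and 15.2% fell with siRNA.1, and 15.8% and 15.1% with siRNA.2. The 5 had a median log2 fold change of -0.050 under siRNA.1 and -0.073 under siRNA.2. HSF2, which can form mixed trimers with HSF1, was at 5.92 to 6.75 FPKM with control siRNA, 5.47 to 6.68 under siRNA.1 and 5.27 to 5.88 under siRNA.2. Its log2 fold changes of -0.084 (SE 0.11, edgeR adjusted p = 0.652) and -0.23 (SE 0.11, adjusted p = 0.110) did not pass.

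Among the HSP70 genes, HSPA1A and HSPA1B encode nearly the same stress-inducible protein from neighbouring intronless genes on chromosome 6 (GRCh38, plus strand, 31815543 to 31817946 and 31827738 to 31830254). HSPA1A was at 30.86, 33.20 and 34.33 FPKM with control siRNA, 27.19, 29.11 and 29.40 with siRNA.1, and 23.64, 24.70 and 24.30 with siRNA.2. HSPA1B was at 14.48, 16.95 and 16.34 FPKM, then 13.20, 12.33 and 12.11, and 12.14, 12.39 and 12.38. For both genes every PARylator siRNA library lay below every control library, and for HSPA1A the 3 groups formed 3 separate ranges, with siRNA.2 the lowest. HSPA1A fell by 0.23 on the log2 scale with siRNA.1 (SE 0.063, edgeR adjusted p = 0.00162) and by 0.45 with siRNA.2 (SE 0.063, adjusted p = 1.68e-11). HSPA1B fell by 0.37 (SE 0.084, adjusted p = 6.97e-05) and by 0.38 (SE 0.083, adjusted p = 2.60e-05).

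These genes share most of their sequence. Of the stretches of 100 bases in the canonical transcript of HSPA1A, 72.4% also occur in HSPA1B, and 68.9% of those of HSPA1B occur in HSPA1A, and how reads that match both were counted is not given in the sources used here, so the split between them is uncertain. The summed level does not depend on how such reads were split, but it does depend on whether they were kept. It was 45.3 to 50.7 FPKM with control siRNA, 40.4 to 41.5 under siRNA.1 and 35.8 to 37.1 under siRNA.2, without overlap between any of the groups. The sum of their counts fell by 0.27 on the log2 scale with siRNA.1 (SE 0.056, edgeR adjusted p = 6.82e-06) and by 0.43 with siRNA.2 (SE 0.055, adjusted p = 2.64e-13).

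HSF1 binds heat shock elements, so the RefSeq promoters (GRCh38.p14, 250 bases before to 50 after the annotated start) were read for alternating GAA and TTC units 2 bases apart, as GAANNTTC or TTCNNGAA for 2 units and GAANNTTCNNGAA or TTCNNGAANNTTC for 3 units, on both strands, where N is any base and a 3-unit match holds 2-unit matches. A 3-unit match was in 0.487% of 27305 promoters and a 2-unit match in 13.7%. The matches in the promoters of the listed genes are shown 5′ to 3′ on the strand of the gene, with the element in capitals and 14 bases on either side, because they are the best-known route from HSF1 to these genes.
HSPA1A, chr6:31815423-31815458, plus strand, 2 units from position -106: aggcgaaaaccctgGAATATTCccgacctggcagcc
HSPA1B, chr6:31827619-31827654, plus strand, 2 units from position -105: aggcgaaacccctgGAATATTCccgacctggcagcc
HSPA8, chr11:123062340-123062380, minus strand, 3 units from position -230: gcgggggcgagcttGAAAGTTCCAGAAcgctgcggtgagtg
HSPA8, chr11:123062165-123062205, minus strand, 3 units from position -55: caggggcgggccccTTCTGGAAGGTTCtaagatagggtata
HSPB1, chr7:76302477-76302512, plus strand, 2 units from position -182: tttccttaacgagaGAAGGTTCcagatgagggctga
The windows of HSP90AA1, HSPH1, DNAJB1, BAG3 and HSPD1 held no match to these letters, which says nothing about elements elsewhere or with a mismatch. Only 1 promoter was read per gene symbol, so other start sites of a gene were not covered. The windows of DNAJB1 (14529222 to 14529521) and HSPD1 (197500225 to 197500524) lie inside the annotated genes, and so do the HSPA8 elements. The window of HSP90AA1 (102139700 to 102139999) lies at the far upstream end of its gene, and start sites inside that gene were not read. HSPA1A and HSPA1B carried the same 8-base element at nearly the same distance from the start. Of the genes with a match, HSPA1A, HSPA1B and HSPB1 fell with both siRNAs, and HSPA8, the member with 3-unit matches, fell with siRNA.1 and was not called with siRNA.2. Of the 39 tested genes with a 3-unit match in the promoter, HSPA8 included, 10 rose and 11 fell with siRNA.1 (25.6% and 28.2%, against 19.9% and 20.8% of the 11880 tested genes with a promoter), and 13 rose and 5 fell with siRNA.2 (33.3% and 12.8%, against 21.1% and 20.7%). Of the 1219 tested genes with a 2-unit match, the kind in HSPA1A, HSPA1B and HSPB1, 21.6% rose and 20.8% fell with siRNA.1, and 23.6% rose and 20.5% fell with siRNA.2.

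HSPA8, the constitutive HSP70 of the cytosol on chromosome 11 (minus strand, 123057489 to 123063230), behaved differently under the 2 siRNAs. It was at 456.21, 479.13 and 474.71 FPKM with control siRNA, 438.34, 430.47 and 445.46 with siRNA.1, and 469.77, 474.63 and 479.98 with siRNA.2. The siRNA.1 libraries lay below all others, and the siRNA.2 range overlapped the control range. HSPA8 fell by 0.13 on the log2 scale with siRNA.1 (SE 0.030, edgeR adjusted p = 0.000142), and its log2 fold change under siRNA.2 was 0.0036 (95% interval -0.056 to 0.063, adjusted p = 0.959). The direct comparison gave a log2 difference of 0.13 for siRNA.2 over siRNA.1 (SE 0.030, adjusted p = 0.000285).

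HSP90AA1, the inducible cytosolic HSP90 on chromosome 14 (minus strand, 102080742 to 102139699), was also lowest with siRNA.1. It was at 683.37, 714.74 and 718.28 FPKM with control siRNA, 654.62, 642.01 and 650.35 with siRNA.1, and 684.79, 708.21 and 708.72 with siRNA.2. Again only the siRNA.1 libraries were separate. HSP90AA1 fell by 0.15 on the log2 scale with siRNA.1 (SE 0.028, edgeR adjusted p = 1.33e-06), stood at -0.021 with siRNA.2 (95% interval -0.076 to 0.034, adjusted p = 0.645), and was 0.13 higher with siRNA.2 than with siRNA.1 (SE 0.028, adjusted p = 0.000155). With limma this last difference had an adjusted p of up to 0.0553.

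BAG3, which releases clients from HSP70 and leads them to selective autophagy together with small heat shock proteins, had the deepest fall of the 10 genes with siRNA.2. BAG3 (chromosome 10, plus strand, 119651380 to 119677819) was at 51.52, 53.21 and 52.64 FPKM with control siRNA, 45.83, 39.61 and 42.17 with siRNA.1, and 36.83, 38.03 and 37.72 with siRNA.2. The 3 groups did not overlap. It fell by 0.33 on the log2 scale with siRNA.1 (SE 0.053, edgeR adjusted p = 8.58e-09) and by 0.49 with siRNA.2 (SE 0.053, adjusted p = 3.60e-19), a drop to 0.710 of the control level. The difference between the siRNAs was -0.17 (SE 0.053, adjusted p = 0.0198), and it was lost without replicate 1 or 3 of siRNA.1 or of siRNA.2, where the adjusted p rose as far as 0.288, and with limma (0.0626 to 0.0660).

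DNAJB1, the J-domain partner of the inducible HSP70 (chromosome 19, minus strand, 14514769 to 14560391), was at 24.72, 27.58 and 28.16 FPKM with control siRNA, 22.21, 22.54 and 22.41 with siRNA.1, and 20.10, 21.14 and 20.46 with siRNA.2. The ranges were separate, with siRNA.2 the lowest. DNAJB1 fell by 0.29 on the log2 scale with siRNA.1 (SE 0.047, edgeR adjusted p = 1.35e-08) and by 0.39 with siRNA.2 (SE 0.047, adjusted p = 1.37e-15). The difference between the siRNAs did not pass (-0.11, 95% interval -0.20 to -0.013, adjusted p = 0.144).

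HSPH1 encodes HSP110, the nucleotide exchange factor that works with HSP70 and a J-domain protein to dissolve aggregates. HSPH1 (chromosome 13, minus strand, 31134973 to 31162388) was at 68.62, 72.46 and 71.22 FPKM with control siRNA, 64.11, 64.48 and 65.26 with siRNA.1, and 61.75, 64.78 and 65.63 with siRNA.2. Both PARylator siRNA groups lay below the control group and overlapped each other. HSPH1 fell by 0.16 on the log2 scale with siRNA.1 (SE 0.038, edgeR adjusted p = 0.000239) and by 0.15 with siRNA.2 (SE 0.038, adjusted p = 0.000327), and the 95% interval of the difference between them was -0.071 to 0.079. The genes most like HSPH1 in log2 CPM over the 9 libraries were TIMELESS (Pearson r = 0.977), ARHGAP1 (0.974) and SNX18 (0.970).

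HSPB1, the small heat shock protein HSP27 (chromosome 7, plus strand, 76302673 to 76304295), was at 319.04, 342.58 and 326.47 FPKM with control siRNA, 280.34, 251.67 and 262.28 with siRNA.1, and 253.45, 282.98 and 282.04 with siRNA.2. All 6 PARylator siRNA libraries lay below the control libraries, and the siRNAs overlapped. HSPB1 fell by 0.34 on the log2 scale with siRNA.1 (SE 0.040, edgeR adjusted p = 1.92e-16) and by 0.28 with siRNA.2 (SE 0.039, adjusted p = 1.54e-11). The log2 difference between the siRNAs was 0.060 (95% interval -0.018 to 0.14, adjusted p = 0.408).

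HSPB8, the small heat shock protein that works in a complex with BAG3, fell further than any of the 10 genes. It was at 10.49, 9.91 and 10.13 FPKM with control siRNA, 5.39, 5.87 and 5.58 with siRNA.1, and 4.58, 4.56 and 4.27 with siRNA.2. These ranges were far apart, and the fall was 0.89 on the log2 scale with siRNA.1 (SE 0.097, edgeR adjusted p = 2.53e-18) and 1.20 with siRNA.2 (SE 0.097, adjusted p = 7.69e-33). Of the 9 other small heat shock genes listed, 3 passed the filter on low values, and HSPB8 was the 1 called in either comparison. CRYAA, CRYAB, HSPB2, HSPB3, HSPB6 and HSPB7 stayed below the filter of a mean of 0.1 FPKM. Of 7 other nucleotide exchange and release factors, 1 fell under siRNA.1 and 2 under siRNA.2 and 0 rose, where 15.2% and 15.1% of all tested genes fell. BAG1 was the other gene lower with siRNA.2, and the 1 that fell with both was BAG6, which guards newly made membrane proteins (log2 fold changes -0.25 and -0.27, adjusted p = 2.67e-05 and 2.75e-06).

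HSPD1, the mitochondrial chaperonin HSP60, moved the other way and had the largest change of the 10 genes with siRNA.1. HSPD1 (chromosome 2, minus strand, 197486584 to 197516737) was at 86.49, 91.99 and 90.72 FPKM with control siRNA, 133.55, 124.57 and 129.18 with siRNA.1, and 117.36, 119.04 and 117.55 with siRNA.2. All 3 groups were separate, with siRNA.1 the highest. HSPD1 rose by 0.50 on the log2 scale with siRNA.1, or 1.41-fold (SE 0.036, edgeR adjusted p = 3.95e-42), and by 0.38 with siRNA.2, or 1.30-fold (SE 0.036, adjusted p = 2.54e-25). It was 0.11 lower on the log2 scale with siRNA.2 than with siRNA.1, a log2 difference of -0.11 (SE 0.035, adjusted p = 0.0147) that was lost without replicate 1 or 3 of siRNA.1 or of siRNA.2 (adjusted p up to 0.119) and with limma (0.0529 to 0.0537). Counted without the mitochondrially encoded genes, which took a smaller share of the counts with both siRNAs, HSPD1 rose by 0.49 and 0.38.

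HSPE1 encodes HSP10, the lid of the HSP60 ring, and lies head to head with HSPD1 on the opposite strand (chromosome 2, 197500140 to 197503449). It was not called higher with either siRNA. HSPE1 was at 82.51, 88.82 and 97.85 FPKM with control siRNA, 83.32, 76.28 and 80.37 with siRNA.1, and 87.05, 89.76 and 88.80 with siRNA.2. The groups overlapped, except for siRNA.1 against siRNA.2. HSPE1 fell by 0.19 on the log2 scale with siRNA.1 (SE 0.050, edgeR adjusted p = 0.000619), a call lost without control replicate 3 (adjusted p = 0.0963) and with limma (0.0737 to 0.0774), and under siRNA.2 it stood at -0.031 (adjusted p = 0.703). The exons of the pair share 135 bases, or 1.77% of those of HSPD1, and whether strand was used in counting is not given in the sources used here.

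Among 11 other mitochondrial chaperones and proteases, 6 rose and 1 fell with siRNA.1, where 15.0% and 15.2% of all tested genes did. With siRNA.2, 6 rose and 0 fell, where 15.8% and 15.1% of all tested genes did. The medians of the list were 0.24 and 0.32 on the log2 scale. The 6 that rose with both were HSPA9, TRAP1, GRPEL1, GRPEL2, DNAJA3 and LONP1, and the 1 that fell with siRNA.1 was HSPE1. DNAJA3, the J-domain protein of the matrix, was at 9.49, 9.73 and 9.18 FPKM with control siRNA, 12.79, 12.70 and 12.83 with siRNA.1, and 13.98, 13.37 and 14.25 with siRNA.2, which is a rise of 0.41 (SE 0.060, edgeR adjusted p = 2.35e-10) and 0.54 (SE 0.059, adjusted p = 2.00e-18) on the log2 scale. TRAP1, the mitochondrial HSP90, was at 16.57, 17.49 and 17.15 FPKM, then 23.80, 22.41 and 22.68, and 23.14, 24.34 and 23.89, a rise of 0.40 (SE 0.055, adjusted p = 8.95e-12) and 0.47 (SE 0.055, adjusted p = 3.70e-16). The ranges of both genes were clear of their control libraries.

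**Figure D3:**
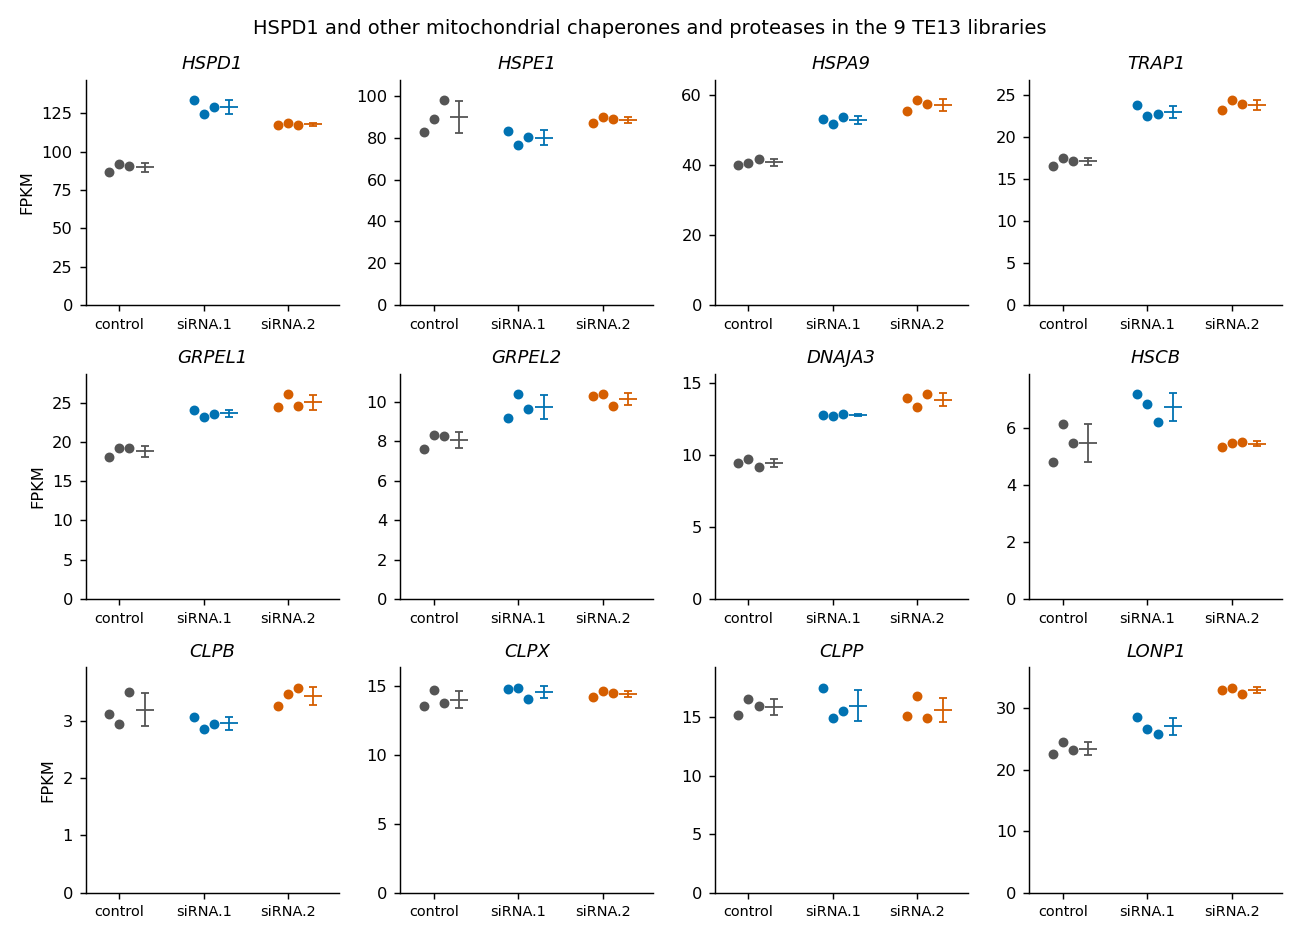
FPKM (vertical axis, from 0) of HSPD1 and of the 11 other mitochondrial chaperones and proteases listed, with 1 point per library and a bar for the mean ± SD of each group of 3. HSPD1, HSPA9, TRAP1, GRPEL1, GRPEL2, DNAJA3 and LONP1 lie higher with both PARylator siRNAs, whereas HSPE1 lies lower with siRNA.1.

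Calls in the other cytosolic chaperone lists ran in both directions. Of 17 genes of HSP90 and its cochaperones, 5 rose and 2 fell with siRNA.1 (against 15.0% and 15.2% of all tested genes). With siRNA.2, 9 rose and 0 fell (against 15.8% and 15.1%). The 2 that fell with siRNA.1 were STIP1, which bridges HSP70 and HSP90, and PTGES3, the cochaperone p23. FKBP5 and FKBP4, immunophilins that join HSP90 in steroid receptor complexes, had the largest changes called with both siRNAs. FKBP4 was at 54.73 to 56.11 FPKM with control siRNA, 67.64 to 69.41 under siRNA.1 and 73.81 to 81.02 under siRNA.2, and rose by 0.27 (SE 0.042, edgeR adjusted p = 2.13e-09) and 0.48 (SE 0.042, adjusted p = 4.38e-28) on the log2 scale. FKBP5, at 1.29 to 1.53 FPKM with control siRNA, rose by 0.38 (SE 0.11, adjusted p = 0.00341) and 0.60 (SE 0.11, adjusted p = 3.14e-07). HSP90AB1, the constitutive partner of HSP90AA1, was at 707.09 to 732.69, 726.20 to 746.43 and 763.37 to 790.58 FPKM, with log2 fold changes of 0.0039 (adjusted p = 0.955) and 0.10 (adjusted p = 0.00399), so that with siRNA.1 HSP90AA1 fell while a change of HSP90AB1 was not detected.

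Of 14 subunits of the cytosolic chaperonin and prefoldin, which fold actin and tubulin, 5 rose and 1 fell with siRNA.1 (against 15.0% and 15.2% of all tested genes). With siRNA.2, 9 rose and 1 fell (against 15.8% and 15.1%). The subunit that fell was TCP1 with siRNA.1 and CCT6A with siRNA.2. PFDN6 was at 11.72 to 13.45 FPKM with control siRNA, 14.95 to 18.34 under siRNA.1 and 16.42 to 18.44 under siRNA.2, and rose by 0.35 (edgeR adjusted p = 2.13e-05) and 0.44 (adjusted p = 2.33e-08) on the log2 scale. PFDN4 rose by 0.31 (adjusted p = 9.45e-05) and 0.47 (adjusted p = 2.93e-10). Of 14 other cytosolic J-domain proteins, 3 rose and 4 fell with siRNA.1, and 3 rose and 6 fell with siRNA.2, against the same shares of all tested genes. DNAJA1, DNAJA2 and DNAJC2 rose with both, and DNAJB2, DNAJB5, DNAJB6 and DNAJC9 fell with both. DNAJC2, which sits on the ribosome, rose by 0.34 and 0.39 (adjusted p = 1.37e-09 and 2.98e-12). DNAJB2 fell by 0.21 (adjusted p = 0.0312) and by 0.59 (adjusted p = 2.07e-12), and the first of these calls was lost under several alternatives, among them a scaling by library totals (adjusted p = 0.0688).

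Of 8 other HSP70 and HSP110 genes, 1 rose and 2 fell with siRNA.1 (against 15.0% and 15.2% of all tested genes). With siRNA.2, 2 rose and 3 fell (against 15.8% and 15.1%). HSPA13 rose and HSPA2 and HSPA4L fell with both, and with siRNA.2 HSPA4 also rose and HSPA1L also fell. HSPA13, an HSP70 of the endoplasmic reticulum, was at 13.01 to 14.80 FPKM with control siRNA, 16.38 to 17.74 under siRNA.1 and 18.08 to 19.83 under siRNA.2, and rose by 0.25 (edgeR adjusted p = 0.000529) and 0.42 (adjusted p = 2.56e-10) on the log2 scale. HSPA4L, a relative of HSPH1, fell by 0.55 (adjusted p = 5.40e-07) and by 0.25 (adjusted p = 0.0345, lost with limma at 0.107 to 0.117), from 2.26 to 2.43 FPKM with control siRNA to 1.54 to 1.72 and 1.82 to 2.09. HSPA6, the strictly stress-induced HSP70, stayed at 0.25 to 0.88 FPKM over all 9 libraries and was not called (adjusted p = 0.204 and 0.434). Like the other list genes named outside the rule given with the methods, it was chosen for mention after its values were seen.

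**Figure D4:**
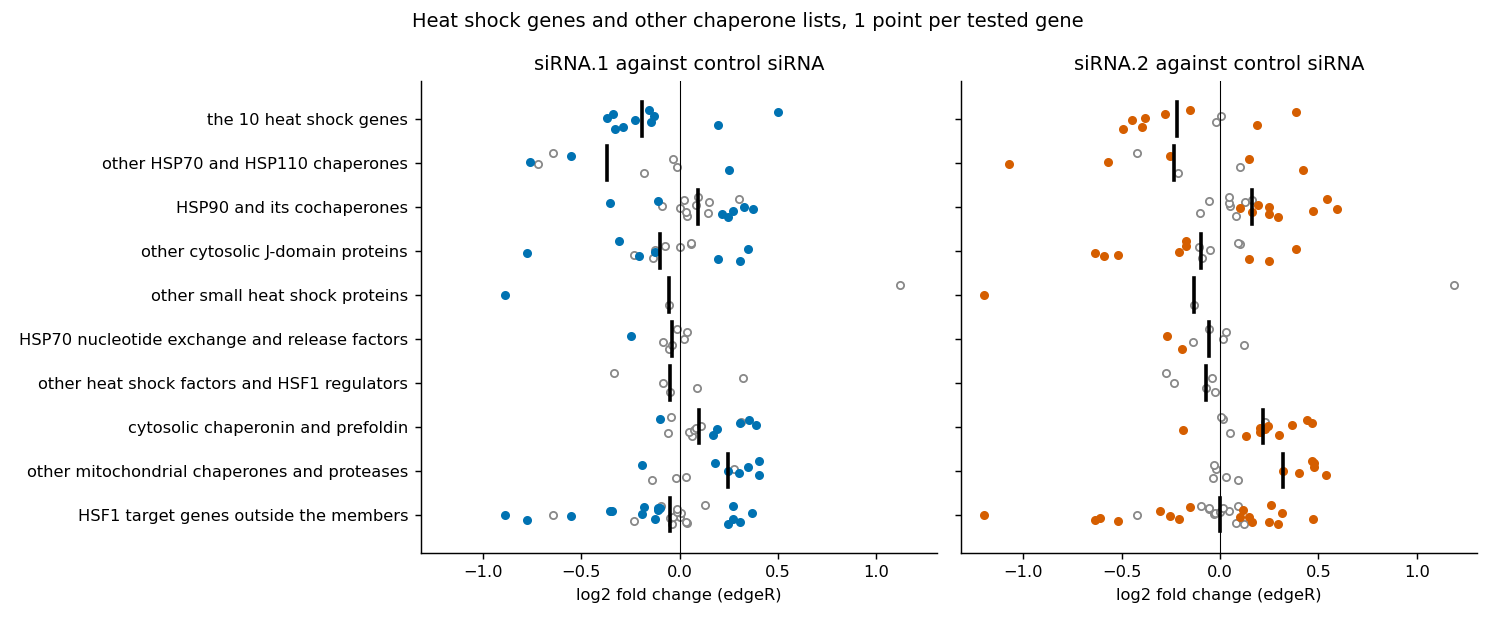
Log2 fold change from edgeR (horizontal axis) with siRNA.1 (left) and siRNA.2 (right) against control siRNA, with 1 point per tested gene, filled where the adjusted p is under 0.05, and a black bar at the median of each list. The bar of the 10 heat shock genes lies at -0.19 and -0.22, and that of the other mitochondrial chaperones and proteases at 0.24 and 0.32.

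Among known HSF1 target genes other than the 10, 29 of 30 were tested (CRYAB was not). With siRNA.1, 5 rose and 11 fell, with a median log2 fold change of -0.047, and with siRNA.2, 9 rose and 8 fell, with a median of 0.0020. With both siRNAs 4 were higher (AHSA1, FKBP4, DNAJA1 and IER5) and 6 lower, and the 1 called in opposite directions was SERPINH1, the collagen chaperone of the endoplasmic reticulum (log2 fold changes -0.11 and 0.12, edgeR adjusted p = 0.0134 and 0.00656). Among genes of this list with a mean of at least 1 FPKM, the largest change called with both siRNAs was that of HSPB8, followed by HSPA4L. DNAJB5, at 0.77 to 0.85 FPKM with control siRNA, fell more than HSPA4L (log2 fold changes -0.78 and -0.63, edgeR adjusted p = 0.00477 and 0.0206). Over all 96 listed genes outside the 10, of which 89 were tested, 22 rose and 15 fell with siRNA.1, and 32 rose and 16 fell with siRNA.2. Of all tested genes, 15.0% rose and 15.2% fell with siRNA.1, and 15.8% and 15.1% with siRNA.2.

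Comparing the siRNAs with each other, 5 of the 10 genes differed, where 12.2% of all tested genes did. HSPA8 and HSP90AA1 were higher with siRNA.2, and HSPA1A, BAG3 and HSPD1 were lower. HSPA1A was lower by a log2 difference of -0.22 (SE 0.063, edgeR adjusted p = 0.00646), which was lost without replicate 3 of siRNA.1 (adjusted p = 0.0606) or replicate 1 of siRNA.2 (0.0520). For the summed counts of HSPA1A and HSPA1B that difference was -0.15 with an adjusted p of 0.0511. HSF1, HSPA1B, HSPH1, DNAJB1 and HSPB1 were not called.

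**Figure D5:**
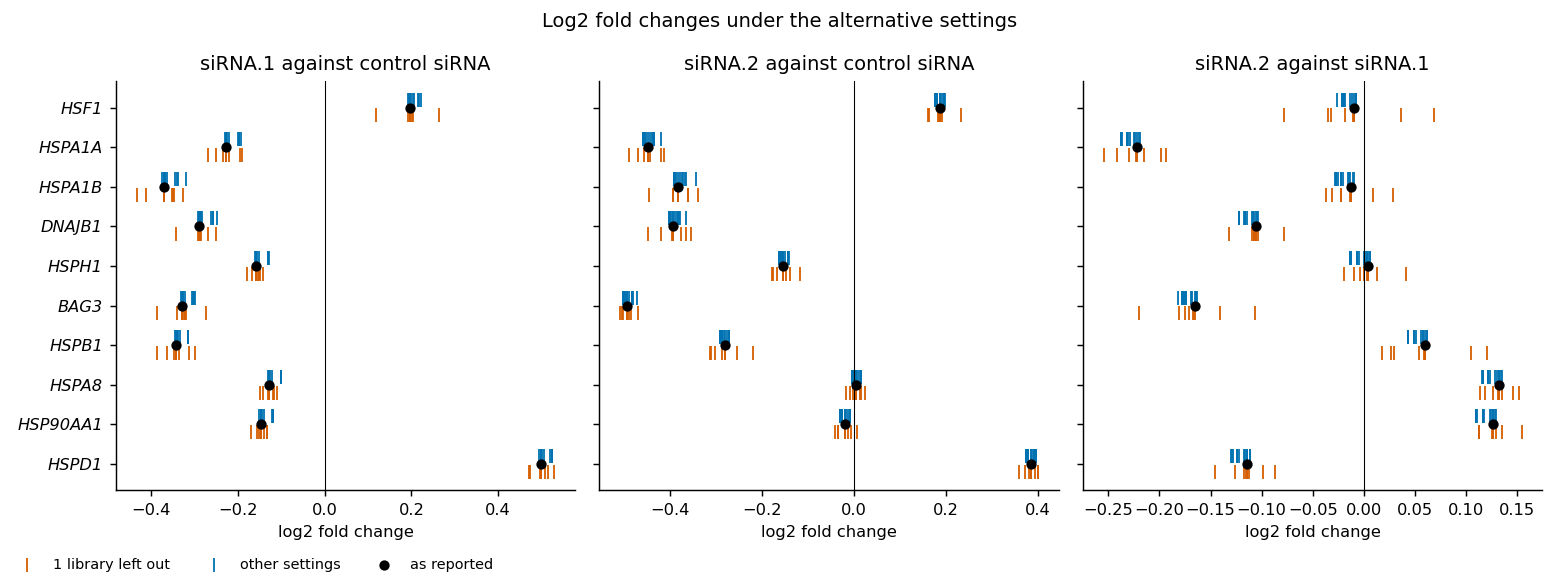
Log2 fold change (horizontal axis, a scale of its own in each panel) of the 10 genes as reported (black points), with 1 library left out (orange ticks) and under other settings (blue ticks). The falls of 6 genes and the rise of HSPD1 with both siRNAs keep their side of 0 throughout, and HSF1 with siRNA.1 ranges from 0.12 to 0.26 when 1 library is left out.

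Some exonic bases of the 10 genes are shared with other genes. The largest overlap on the same strand is that of HSPA1B, with 36.55% of its exonic bases in the long noncoding RNA ENSG00000285565, which had 0 counts in all libraries. HSPA8 shares 11.45% with ENSG00000288061 on the opposite strand, which had at most 4 counts. DNAJB1 shares 6.41% of its exonic bases with TECR on the opposite strand (1495 counts at the median), HSP90AA1 3.87% with WDR20 and HSF1, on chromosome 8 from 144291591 to 144314720, 2.58% with DGAT1. Of the 100-base stretches of HSPB1, 6.05% also occur in the pseudogene HSPB1P1, 4.29% of those of HSPD1 and 2.33% of those of HSP90AA1 occur in other genes, and none of those of HSPA8, HSPH1, DNAJB1 and BAG3 did.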

How the data were processed

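Poly(A)+ RNA from TE13 cells was sequenced in 9 libraries, grouped by their titles. Per the paper, the authors used STAR for alignment to GRCh38 and featureCounts for counting; versions, annotation release, strand setting and the treatment of reads with several matches are not given in the sources used here. The counts deposited by the authors are raw. They also deposited FPKM, which the counts, the deposited exonic lengths and the library totals returned within 0.01 for 100% of values. Counts were tested with edgeR 4.0.16 (R 4.3.3; quasi-likelihood, TMM scaling, no covariate) in 1 fit of the 3 groups over the 21395 genes whose mean reached 0.1 FPKM. Calls used a Benjamini-Hochberg adjusted p under 0.05. The 95% intervals are normal intervals from the standard error. Alternatives were DESeq2 1.42.0, limma 3.58.1 on log2(FPKM + 0.1, 1 or 0.01), other scalings and filters, a replicate block, HSPA1A and HSPA1B summed, and each library left out. Data were also simulated with the mean levels and library totals of these libraries (21395 genes), with changes in siRNA.1. In them edgeR recovered 21 of 100 genes changed by 0.3 on the log2 scale and 68 of 100 changed by 1, with 5 false calls. The changed genes were few, were drawn from all levels and had 1 fixed spread. These shares therefore do not measure the power for the 10 genes. Replicate libraries of a group differed by more than sampling noise (chi-square per gene 2.76 to 4.62). The design text names biological replicates without saying how they were made, so the p-values speak only for these libraries. Counts were 15337917 to 22559998 per library. The edgeR precision comes from a spread estimated over all 9 libraries and largely pooled over genes. A gene's own spread between its libraries therefore weighs little in the p-values. For HSPD1 with siRNA.1 the edgeR adjusted p was 3.95e-42, and it rose as far as 1.21e-05 under the alternatives that keep all libraries. The genes and lists were chosen with earlier results of these data known, and the lists of other chaperones and HSF1 targets were written from general knowledge. Besides the 10 genes and LINC00885, the text names the 2 genes of each list with the largest mean change called with both siRNAs at a mean of at least 1 FPKM, list genes whose values touch one of the 10, and the 3 genes most correlated with HSF1 and with HSPH1. Gene models came from GENCODE release 44, promoters from RefSeq (GRCh38.p14), where all of the 10 genes but HSF1 matched. Figures were drawn with matplotlib 3.10.9.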

Additional observations from a re-analysis of the deposited data

Results flagged for a closer look

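The effects of the 2 PARylator siRNAs differed for 5 of the 10 genes in the direct comparison of siRNA.2 with siRNA.1 (edgeR adjusted p under 0.05). In that comparison 12.2% of all tested genes differed. The log2 difference was -0.22 for HSPA1A, 0.13 for HSPA8, 0.13 for HSP90AA1, -0.17 for BAG3 and -0.11 for HSPD1. Only the values for HSPA8 and HSP90AA1 stayed past the threshold with each single library left out, and of these HSPA8 alone did so in each of the 3 limma settings as well. The siRNA is confounded here with its own set of libraries and with their depth (15374616 to 17762752 counts with siRNA.1, 19213164 to 22559998 with siRNA.2), so these cannot be told apart.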

How the results depend on the processing

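HSPA1A, HSPA1B, HSPH1, DNAJB1, HSPB1 and BAG3 kept their fall and HSPD1 its rise with both siRNAs in each setting that gave them a value. With siRNA.1 the count of the 10 genes that rose was 1 to 2 with a library left out, and with siRNA.2 it was 1 in each of the 3 limma settings, HSF1 being lost each time. Between the siRNAs, limma called 3, 2 and 2 genes (pseudocounts 0.1, 1 and 0.01), with 1 higher at pseudocounts 1 and 0.01 and 1 lower in each, and leaving out a library gave 2 to 5 called, 2 to 3 higher and 0 to 3 lower. Of the other listed genes, those that fell with siRNA.1 numbered 8 in each limma setting and 9 to 15 with a library left out. Over all genes, limma called 1437, 1414 and 1449 between the siRNAs, where edgeR called 2603. HSPA8 with siRNA.2 changed sign, always near 0: -0.0057 with DESeq2 and with its size factors, -0.0044 over genes of at least 1 FPKM, -0.0021 with only the 2 groups, -0.0012 without mitochondrially encoded genes and -0.017 to 0.023 with a library left out. HSPH1 between the siRNAs was -0.0065 with DESeq2, -0.0131, -0.0129 and -0.0131 with limma, -0.0066 with DESeq2's size factors, -0.0127 with library totals, -0.0051 over genes of at least 1 FPKM and -0.020 to 0.041 with a library left out. Leaving out a library also turned HSP90AA1 (-0.043 to 0.0067) and HSPE1 (-0.088 to 0.038) with siRNA.2, and, between the siRNAs, HSF1 (-0.078 to 0.068), HSPA1B (-0.037 to 0.029) and BAG6 (-0.069 to 0.017). The causes were not tested.

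Same-numbered libraries did not deviate together (r between -0.12 and 0.049 over 9 pairs, against -0.063 to 0.12 over 18 pairs of different numbers). No sign of a pairing by number was seen, and the labels do not say whether there was one. A fit with the replicate number as a block called 10, 8 and 5 of the 10 genes, as without it, and 6215, 6358 and 2342 of all genes in place of 6472, 6614 and 2603.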

Other observations

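Expressed as a share of each library, the 10 heat shock genes together took 0.800% to 0.842% of all counts with control siRNA, 0.776% to 0.800% under siRNA.1 and 0.805% to 0.832% under siRNA.2. Without HSF1 and HSPD1 the share of the 8 cytosolic chaperones and cochaperones was 0.724% to 0.762% with control siRNA, 0.670% to 0.686% under siRNA.1 and 0.705% to 0.731% under siRNA.2. For these 8 the siRNA.1 range lay below that of control siRNA, and the siRNA.2 range overlapped it. Most of this share came from HSP90AA1 and HSPA8, which were not called with siRNA.2. The share therefore says little about the other 6 genes, which fell with both siRNAs.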
